A study of Mus musculus with 3 samples.

Results

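Collagen chain genes encode the α chains that assemble in threes into the triple helices of the extracellular matrix. The members were all non-control array probes whose gene name was that of a collagen α chain, with old names matched by RefSeq accession. There were 70 such probes for 39 genes, out of 41174 probes for 30338 gene names. They were grouped by collagen type into fibrillar collagens (types 1, 2, 3, 5 and 11, with 18 probes for 9 genes), collagens of the basement membrane (types 4, 15 and 18, with 15 probes for 8 genes) and other collagens (37 probes for 22 genes). Col24a1 and Col27a1, which are fibrillar by structure, stand in the other group.

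RNA was measured on 3 Agilent whole mouse genome arrays, numbered as replicates 1 to 3, of the line EpH4-PR. EpH4 cells are epithelial cells from the mouse mammary gland, and EpH4-PR carries a stable transfection of PR-A, the A isoform of the progesterone receptor, selected as clones and kept under neomycin (G418). The cells were grown in medium with 10% serum to about 75% confluence. EpH4-PR RNA was in the red channel (Cy5) throughout, and the Stratagene mouse standard, a commercial RNA used as the reference, was in the green channel (Cy3). No dye swap was made and the vector control line EpH4-EV was not analysed here. Every ratio below is therefore the level in EpH4-PR cells against that in the reference RNA, and none measures an effect of PR. A ratio against a mixed reference depends on the reference as much as on the cells. Whether the 3 replicates were separate cultures is not stated, so the errors may be technical.

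Fibrillar collagens form the rope-like fibres of connective tissue and are made mostly by fibroblasts and other mesenchymal cells. Type 4 collagen forms the sheet-like network of the basement membrane on which mammary epithelium rests, and types 15 and 18 lie in or beside that membrane. Epithelial cells make part of the basement membrane themselves, and they are fixed to the stroma beneath by anchoring fibrils of type 7 collagen. Chains are hydroxylated and folded in the endoplasmic reticulum, trimmed by proteases on secretion and cross-linked by lysyl oxidases.

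The upstream sequences of 4 genes are shown because these genes stand at the ends of the range of ratios: Col1a2 and Col3a1 among the lowest, and Col7a1 and Col8a1 as the genes called higher. Each is the 250 bases before the annotated start of the gene, 5′ to 3′ on the strand of the gene, from RefSeq for assembly GRCm38.p6. Capitals mark exact matches to 3 short motifs, searched on both strands. The TATA box was searched as the letters TATAAA. The GC box was searched as the letters GGGCGG. The CCAAT box was searched as the letters of its name, and none of the motifs contains another.
Col1a2, chr6:4505368-4505617, + strand: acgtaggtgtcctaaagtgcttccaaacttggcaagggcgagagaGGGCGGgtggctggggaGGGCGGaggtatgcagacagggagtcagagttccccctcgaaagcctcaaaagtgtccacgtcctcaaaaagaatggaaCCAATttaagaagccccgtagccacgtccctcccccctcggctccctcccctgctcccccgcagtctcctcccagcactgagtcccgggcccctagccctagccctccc
Col3a1, chr1:45311288-45311537, + strand: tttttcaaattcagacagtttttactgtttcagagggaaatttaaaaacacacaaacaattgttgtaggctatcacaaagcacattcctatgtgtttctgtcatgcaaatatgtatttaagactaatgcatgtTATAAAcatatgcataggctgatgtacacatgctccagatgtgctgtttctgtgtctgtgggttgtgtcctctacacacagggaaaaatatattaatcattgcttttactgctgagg
Col7a1, chr9:108953336-108953585, + strand: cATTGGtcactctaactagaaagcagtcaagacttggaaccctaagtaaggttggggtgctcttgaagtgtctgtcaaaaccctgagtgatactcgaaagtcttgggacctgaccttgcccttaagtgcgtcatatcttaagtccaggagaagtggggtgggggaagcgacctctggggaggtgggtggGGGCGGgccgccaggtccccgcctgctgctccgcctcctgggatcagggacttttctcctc
Col8a1, chr16:57754738-57754987, - strand: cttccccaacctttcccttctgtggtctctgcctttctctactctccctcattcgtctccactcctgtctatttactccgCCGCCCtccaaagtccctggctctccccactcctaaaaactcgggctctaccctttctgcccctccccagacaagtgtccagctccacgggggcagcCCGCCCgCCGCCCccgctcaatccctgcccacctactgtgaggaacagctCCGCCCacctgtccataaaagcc
The Col1a2 window held 1 CCAAT box and 2 GC boxes, and the Col3a1 window held 1 TATA box alone. The Col7a1 window held 1 CCAAT box and 1 GC box, and the Col8a1 window held 4 GC boxes. Among all 32851 upstream windows, 12.4% held a TATA box, 33.8% a CCAAT box and 32.7% a GC box. Among the 34 windows of 31 collagen genes these shares were 14.7%, 35.3% and 58.8%. A match is a description of the letters in the window and does not show a site in use.

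Of the 70 collagen probes, 15 probes of 13 genes were lower in EpH4-PR cells than in the reference RNA (21.4%) and 2 probes, of Col7a1 and Col8a1, were higher (2.86%). A probe was called at a limma adjusted p under 0.05, over all 41174 probes, together with a log2 ratio of at least 1 in size. Over all probes, 1578 were lower (3.83%) and 932 were higher (2.26%). The median log2 ratio of the collagen probes was -0.14, against -0.01 for all probes. It was -0.38 with normexp offset 0, -0.62 by the ratio of the scanner software and -0.32 with median centring, and the many dim probes described below lie near 0. When the arrays were only centred on their median, 14 collagen probes were lower and 4 higher, against 708 lower and 7031 higher over the array, or 1.72% and 17.1% of all probes. The balance of directions over the whole array thus changed with the loess step. With offset 0 in place of 50, 22 collagen probes were lower and 3 higher (9.48% and 7.59% of all probes), and by the ratio of the scanner software 19 were lower and 2 higher (9.44% and 8.78%). Without the limit on size, 31 were lower and 6 higher (24.6% and 25.7%). Among the 100 lowest ratios of the array, 7 were collagen probes.

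**Figure D1:**
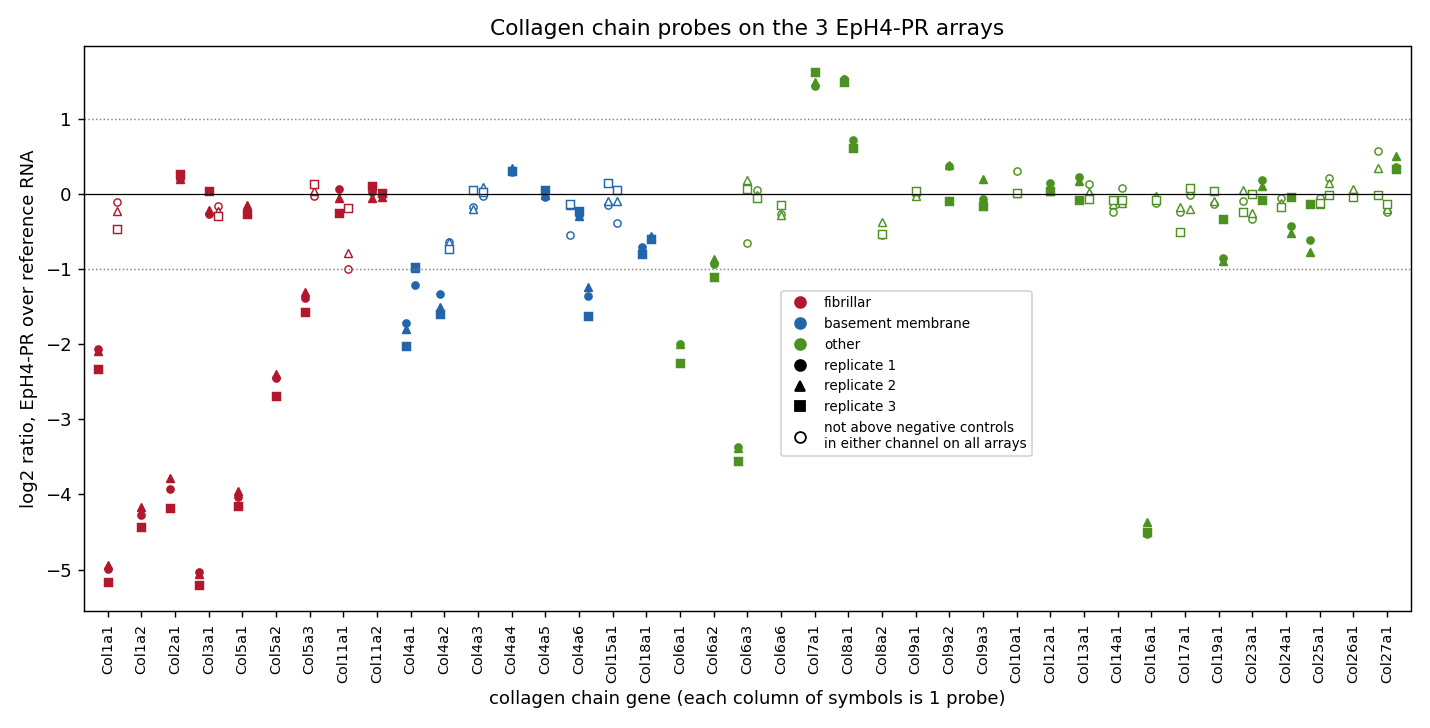
The log2 ratio of the cells over the reference for all 70 collagen probes, by gene and group, with 1 symbol per array and dotted lines at the limits of -1 and 1. The lower probes lie mostly among the fibrillar collagens, from -1.42 (Col5a3) to -5.10 (Col3a1), and open symbols, for probes at the level of the negative controls in both channels, have means from -0.67 to 0.31, with single arrays from -0.998 (Col11a1) to 0.57 (Col27a1).

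Many collagen probes carried little signal in either channel. In the EpH4-PR channel 39 collagen probes of 30 genes (55.7%) read above the 95th percentile of the negative control spots on all 3 arrays, against 66.8% of all probes. In the reference channel 27 did (38.6%), against 33.2% of all probes. The other 31 collagen probes were at the level of the negative controls in both channels, their mean ratios ran from -0.67 to 0.31, and none was called. For 9 of the 39 genes no probe read above the negative controls in a channel. No collagen probe was saturated and none had an outlier spot. The 95th percentile of the 314 negative control spots was at 85.9, 87.4 and 62.9 in Cy5 and at 162, 168 and 107 in Cy3 on replicates 1, 2 and 3. Replicate 3 thus read dimmer at the floor in both channels, and 13 of the 15 lower probes had their lowest ratio on that array. The part of the dimmer floor in that order was not tested.

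**Figure D2:**
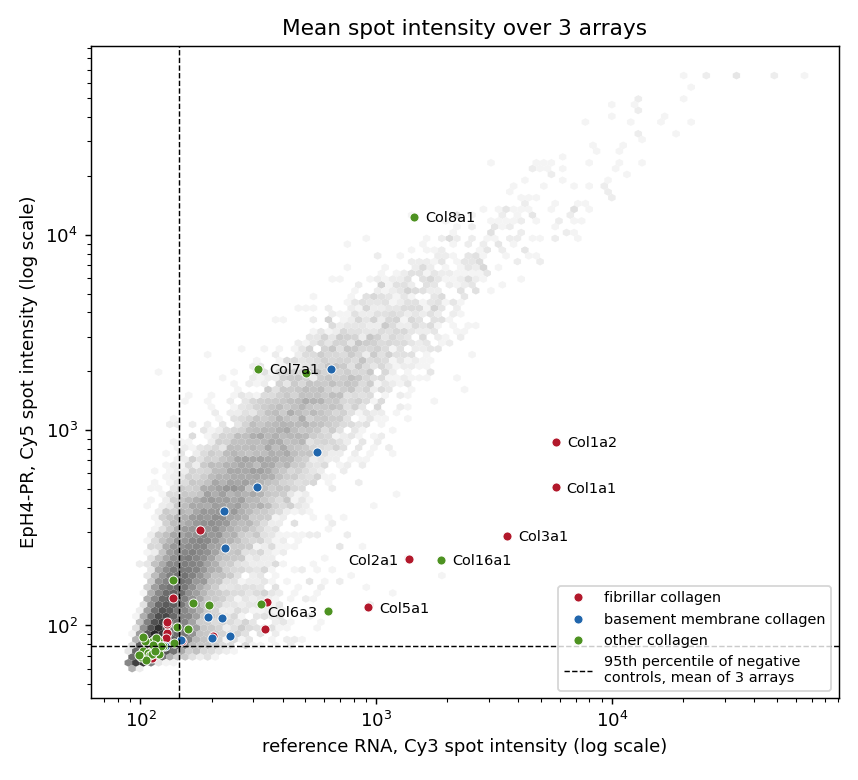
Spot intensity in the EpH4-PR channel (Cy5) against the reference channel (Cy3), both on log scales and averaged over the 3 arrays, for all probes (grey, darker where probes are denser) and collagen probes (coloured). Dashed lines mark the negative controls; the lowest fibrillar ratios belong to probes that were bright in the reference RNA, such as Col1a1 and Col1a2, and Col8a1 has the highest collagen spot intensity in the EpH4-PR channel.

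The fibrillar collagens were the group with the most lower probes: 8 of 18 probes (44.4%), of 7 of the 9 genes, and none was higher. Over all probes 3.83% were lower and 2.26% higher, and 11.5% were lower among those above the negative controls in the reference RNA. At so small a share of higher probes, a group of this size may well hold none. Their median log2 ratio was -0.46, but it was -1.23 with offset 0 and -1.25 by the scanner software. It was -3.96 with 1 probe per gene, the brightest over both channels. That choice uses the reference signal, so it can favour probes with low ratios. Col1a1 and Col1a2 encode the chains of type 1 collagen, the main fibril of skin, bone and tendon. The probe A_52_P525107 of Col1a1 gave log2 ratios of -4.99, -4.93 and -5.16 on replicates 1, 2 and 3, with a mean of -5.03 ± 0.12 (SD, n = 3; adjusted p = 1.16e-05). Its spots read 567, 482 and 477 in EpH4-PR cells against 6084, 5182 and 5998 in the reference RNA. The ratio was 32.7-fold lower, and the EpH4-PR signal still lay above the negative controls on every array. A second probe of Col1a1 (A_51_P377094) was lower by less, at -2.06, -2.08 and -2.33. The last (A_52_P658611) gave -0.26 ± 0.18 and read above the negative controls on only 1 array in each channel.

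Col1a2 had 1 probe, at -4.27, -4.17 and -4.43, with a mean of -4.29 ± 0.13 (19.6-fold lower; adjusted p = 1.28e-05). Its spots read 908, 908 and 794 in EpH4-PR cells. Both type 1 chains were thus lower by over 4 log2 units on each array by their lowest probe.

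Col3a1 encodes type 3 collagen, which accompanies type 1 in soft connective tissue, and its probe A_51_P515605 had the lowest ratio of the collagens and the fifth lowest of the array. It gave -5.03, -5.05 and -5.21, with a mean of -5.10 ± 0.10 (34.3-fold lower; adjusted p = 1.16e-05). The other probes of Col3a1 gave -0.14 ± 0.16 and -0.23 ± 0.07. Neither read above the negative controls in the reference RNA, where A_51_P515605 read from 3233 to 3807.

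Col2a1 encodes the cartilage collagen of type 2, and its probes differed. A_51_P317141 gave -3.93, -3.78 and -4.18 (mean -3.96 ± 0.20, adjusted p = 1.81e-05). A_52_P216436 gave 0.20, 0.20 and 0.27 (mean 0.22 ± 0.04, adjusted p = 0.0109), which is under the limit of size, although its spots read 310, 322 and 291 in EpH4-PR cells and were above the negative controls in both channels. The arrays agreed on each probe, so the gap between the probes was far larger than the spread between replicates, and the gene has no single ratio here.

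Type 5 collagen is a minor fibrillar collagen that regulates the width of type 1 fibrils. Col5a1 gave -4.04, -3.96 and -4.16 (mean -4.05 ± 0.10), Col5a2 gave -2.45, -2.40 and -2.68 (mean -2.51 ± 0.15) and Col5a3 gave -1.39, -1.30 and -1.57 (mean -1.42 ± 0.14). By the lowest probe of each gene, the 3 chains kept the same order on each array. Col5a1 read 952, 886 and 930 in the reference RNA and Col5a3 read 218, 209 and 182, nearer to the negative controls, and the part of that signal in the order of the ratios was not tested. A second probe of Col5a1 gave -0.21 ± 0.07 and a second of Col5a3 gave 0.05 ± 0.08, so the order does not hold for every probe. The cartilage chains Col11a1 and Col11a2 were the fibrillar genes with no call. Their 4 probes had means from -0.65 to 0.03, and none read above the negative controls in the reference RNA on more than 1 array.

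Of the basement membrane collagens, 4 of 15 probes were lower (26.7%), of Col4a1, Col4a2 and Col4a6, and none was higher. The shares over all probes were 3.83% and 2.26%. The median log2 ratio was -0.27, and -0.72 with offset 0 and by the scanner software. Type 4 chains are encoded in head-to-head gene pairs, and each pair is given together. Col4a1 and Col4a2, whose chains form the type 4 network found in nearly all basement membranes, were lower. Col4a1 gave -1.72, -1.79 and -2.02 by one probe (A_51_P124254; mean -1.84 ± 0.16, adjusted p = 5.19e-05) and -1.20, -0.98 and -0.97 by the other (A_52_P518827; mean -1.05 ± 0.13, adjusted p = 0.000178). The second lay at the limit of size, and without replicate 1 its mean was -0.98 and it was not called. Col4a2 gave -1.32, -1.50 and -1.59 (mean -1.47 ± 0.14, adjusted p = 7.15e-05), and its other probe gave -0.67 ± 0.05 (adjusted p = 0.000261), under the limit. These probes were dim in EpH4-PR cells, with spots between 75.3 and 121 for the 3 lower probes, against a negative control level of 62.9 to 87.4.

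Col4a3 and Col4a4 encode chains of the network of the kidney glomerulus and a few other sites. Col4a3 was at the level of the negative controls in both channels by each of its probes, with means of -0.10 ± 0.14 and 0.04 ± 0.06. Col4a4 gave 0.30, 0.34 and 0.31 (mean 0.32 ± 0.03, adjusted p = 0.00280), with spots at 2122, 2074 and 1997 in EpH4-PR cells. It had one of the 5 highest ratios among collagen probes above background, and its probe was clearly above the negative controls, but the ratio was under the limit of size. With median centring the ratio was 1.61 and the probe was called higher.

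Col4a5, which joins the network of Col4a3 and Col4a4 or that of Col4a6, gave -0.03, -0.02 and 0.05 (mean 0.00 ± 0.04, adjusted p = 0.995), with spots at 399, 370 and 388 in EpH4-PR cells. Its signal was above the negative controls in both channels, and the ratio was at 0 within the spread of the arrays after loess. With median centring it was 0.87. Col4a6 was lower by 1 of 3 probes, at -1.36, -1.24 and -1.63 (A_52_P516409; mean -1.41 ± 0.20, adjusted p = 0.000169). A second probe, above the negative controls in both channels, gave -0.28, -0.29 and -0.23 (A_52_P447196; mean -0.27 ± 0.03), which turned to 0.74 with median centring. The remaining probe was dim and gave -0.27 ± 0.24. In the order of the type 4 chains by lowest probe, Col4a1 stood below Col4a2 on each array. Col4a2 and Col4a6 overlapped over the 3 arrays, as did Col4a3 and Col4a5.

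Col18a1, the source of endostatin and a collagen of epithelial and vascular basement membranes, was measured well by both probes. The first gave -0.70, -0.78 and -0.80 (mean -0.76 ± 0.05, adjusted p = 0.000176) with spots at 792, 757 and 773 in EpH4-PR cells, and the second gave -0.58 ± 0.02. Both were below 0 on all arrays but under the limit of size, and both turned above 0 with median centring, to 0.41 and 0.18. Col15a1 was at the level of the negative controls by both probes.

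Of the other collagens, 3 of 37 probes were lower (8.11%), of Col6a1, Col6a3 and Col16a1, and the 2 higher probes (5.41%) were also here. These shares were nearer than those of the fibrillar group to the 3.83% and 2.26% over all probes. The median log2 ratio was -0.06, with -0.32 by the scanner software and -0.28 with median centring, and it turned to 0.04 over the probes above the negative controls in a channel. Type 6 collagen forms beaded filaments between the basement membrane and the stroma, from chains of Col6a1, Col6a2 and Col6a3. Col6a1 gave -1.99, -2.00 and -2.24 (mean -2.08 ± 0.14, adjusted p = 3.41e-05). Col6a2 gave -0.94, -0.87 and -1.10 (mean -0.97 ± 0.12, adjusted p = 0.000192), just under the limit of size, and without replicate 2 it was -1.02 and was called lower. Col6a3 gave -3.36, -3.38 and -3.55 by its brightest probe (mean -3.43 ± 0.10, adjusted p = 1.31e-05). By the lowest probe of each chain, Col6a3 stood below Col6a1 and Col6a1 below Col6a2 on each array. The other Col6a3 probes gave -0.13 ± 0.46 and 0.00 ± 0.06 at the level of the negative controls, and the single Col6a6 probe gave -0.22 ± 0.07 there. Col16a1 encodes a collagen that associates with fibrils, and one probe gave -4.53, -4.37 and -4.50 (mean -4.47 ± 0.08, 22.1-fold lower, adjusted p = 1.16e-05). Its spots read 220, 217 and 211 in EpH4-PR cells against 1952, 1775 and 1907 in the reference RNA. The other Col16a1 probe was dim in both channels and gave -0.07 ± 0.05.

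Col7a1, the chain of the anchoring fibrils under stratified and glandular epithelia, was higher in EpH4-PR cells. It gave 1.45, 1.50 and 1.63 (mean 1.53 ± 0.10, 2.88-fold higher, adjusted p = 4.28e-05). Its spots read 2057, 1963 and 2146 in EpH4-PR cells and 336, 320 and 292 in the reference RNA. Col8a1, a short-chain collagen of vessel walls and of the basement membrane of the corneal endothelium, gave 1.53, 1.53 and 1.50 by its brighter probe (mean 1.52 ± 0.02, 2.87-fold higher, adjusted p = 2.59e-05). Its spots read 12703, 12037 and 12241 in EpH4-PR cells. The other Col8a1 probe gave 0.72, 0.65 and 0.62 (mean 0.66 ± 0.05, adjusted p = 0.000264), above 0 on each array but under the limit. With median centring it was 1.93 and was called higher. Col8a2, which encodes the partner chain of type 8, gave -0.48 ± 0.10. Its probe did not read above the negative controls on all 3 arrays in either channel, so it is no measure of the gene.

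The remaining collagens with no call included Col17a1, the transmembrane collagen of hemidesmosomes, whose probes gave -0.30 ± 0.18 and -0.04 ± 0.14. Neither read above the negative controls on all 3 arrays in EpH4-PR cells. Col27a1 had probes at 0.40 ± 0.09, 0.31 ± 0.29 and -0.19 ± 0.05, and the first, with spots at 86.2, 94.7 and 80.9 in EpH4-PR cells, was among the 5 highest collagen ratios above background. On replicate 1 that probe stood at the negative control level of 85.9, and in the reference RNA it was not above that level on any array. With offset 0 its ratio was 1.51 and it was called higher. Col12a1, which associates with fibrils, gave 0.08 ± 0.06 with a signal above the negative controls in EpH4-PR cells and not in the reference RNA. In EpH4-PR cells its spots read 87.9 and 89.0 on replicates 1 and 2, close to the negative control levels of 85.9 and 87.4. Col19a1 and Col25a1 each had a probe above the negative controls in both channels, at -0.69 ± 0.31 and -0.50 ± 0.33, where replicate 3 lay nearest to 0. Over all the collagens, 20 probes had an adjusted p under 0.05 with a ratio under the limit of size, 16 of them below 0 and 4 above.

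Of the 24 collagen genes with several probes, 10 had probes that disagreed in the call: Col1a1, Col2a1, Col3a1, Col4a2, Col4a6, Col5a1, Col5a3, Col6a3, Col8a1 and Col16a1. These genes had 11 called and 13 uncalled probes. All 11 called probes read above the negative controls in the reference RNA on every array, and 3 of the 13 uncalled ones did, of Col2a1, Col4a6 and Col8a1. Over the whole array, 1570 of the 1578 lower probes also read above the negative controls there. The contrast thus follows largely from how calls are made, and the cause of the disagreement was not tested. In at least 1 channel, 5 of the 13 read above the negative controls on every array. Among these 5 were probes of Col3a1 (-0.14) and Col5a1 (-0.21), which did so in EpH4-PR cells. A probe dim in both channels has a ratio near 0 after the correction used here, so an uncalled probe of this kind is no measure of its gene. That limit does not cover the 5. With 1 probe per gene, the brightest over both channels, 12 of the 39 genes were lower, 2 were higher and 25 were not called. The 7 lower fibrillar genes were among the 12. Because the reference signal enters this choice, these gene counts are not independent of the ratios.

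In assembly GRCm38.p6 some collagen genes are direct neighbours, and their ratios are set side by side by lowest probe. On chromosome 1, Col3a1 (-5.10) lies next to Col5a2 (-2.51) and Col4a4 (0.32) next to Col4a3 (-0.10), and Col9a1 (0.01), a chain of a fibril-associated collagen of cartilage, next to Col19a1 (-0.69). On chromosome 8, Col4a1 (-1.84) lies next to Col4a2 (-1.47), and on chromosome 10, Col6a1 (-2.08) next to Col6a2 (-0.97). On chromosome X, Col4a6 (-1.41) lies next to Col4a5 (0.00). In 3 of the 6 pairs, Col3a1 with Col5a2, Col4a1 with Col4a2 and Col6a1 with Col6a2, both ratios were near or below -1, while Col4a6 by its brightest probe (-0.27) was near Col4a5.

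The size of the called ratios depended on the background step and on the loess step, while their direction did not. Their median absolute change was 0.80 with offset 0, 0.89 with the scanner software and 0.84 with median centring. Col1a1 (A_52_P525107), Col1a2 and Col3a1 (A_51_P515605) were at -5.23, -4.41 and -5.47 with offset 0. With median centring they were at -3.67, -2.89 and -3.82. The higher probes of Col7a1 and Col8a1 moved farther from 0 with median centring, from 1.53 and 1.52 to 2.74 and 2.98. Every fold given above therefore holds for the loess ratio alone. Over the 15 lower probes the median log2 ratio was -2.51, with a range from -5.10 to -1.05. In the log ratio of the scanner software the same probes had a median of -4.00, from -5.53 to -1.86, and all 15 were farther from 0. For 10 of the 15 the fold grew by more than 1.5 times. With median centring their median was -1.95, from -3.82 to -0.74. All 17 called probes kept their direction under every alternative tried, and all but the second Col4a1 probe kept their call.

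**Figure D3:**
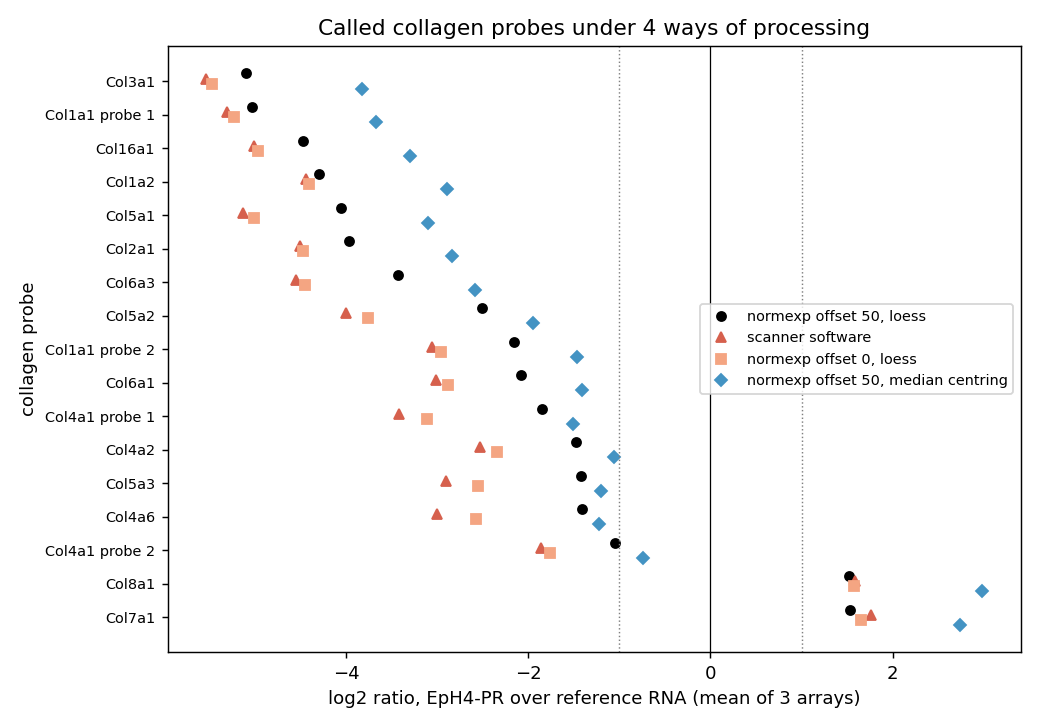
Mean log2 ratio over 3 arrays of the 17 called collagen probes under 4 ways of processing, with dotted lines at the limits of -1 and 1. No probe crosses 0, the dimmer probes such as Col4a6 and Col5a2 move most between backgrounds, and only the second Col4a1 probe moves inside the limit, with median centring.

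Enzymes that modify, trim and cross-link collagen chains were described from a list of 28 genes, of which 27 had a probe. Of their 40 probes, 9 probes of 8 genes were lower and none was higher, against 3.83% and 2.26% of all probes. Their median log2 ratio was -0.29. By gene, 23 of the 27 read above the negative controls in EpH4-PR cells on all arrays. Adamts2, the protease that removes the amino-terminal propeptide of fibrillar procollagens, had the lowest ratio, at -3.31, -3.17 and -3.45 (mean -3.31 ± 0.14, adjusted p = 1.74e-05), while its other probes gave -0.72 ± 0.15 and -0.02 ± 0.03. The cross-linking enzyme Lox gave -3.15, -3.11 and -3.37 (mean -3.21 ± 0.14), and P4ha2, a catalytic subunit of prolyl 4-hydroxylase, gave -2.45, -2.41 and -2.43 (mean -2.43 ± 0.02). The other lower probes were those of P3h3 (-2.03), P4ha1 (-1.88 and -1.83), Loxl1 (-1.83), Pcolce (-1.54) and one of Loxl2 (-1.48). With median centring P4ha1 (-0.86 and -0.97) and Loxl2 (-0.96) came inside the limit and Pcolce was at -0.08. Other genes of the same enzyme families were not called, among them P3h1 (-0.48), P3h2 (0.15), P4ha3 (-0.07), Loxl3 (-0.28), Loxl4 (0.11 and 0.48) and Adamts3 (-0.41 and 0.07).

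Among the folding factors of the list, P4hb gave -0.91 ± 0.06, the collagen chaperone Serpinh1 gave -0.85 ± 0.17 and Ppib gave -0.82 ± 0.03 and -0.53 ± 0.04, and none was called. All were below 0 on each array after loess, but with median centring they turned above 0, to 0.48, 0.66, 0.60 and 0.52. Pcolce2 (0.77 ± 0.16) and Bmp1 (0.62 ± 0.11 and -0.01 ± 0.10), which act in trimming of the carboxy-terminal propeptide, were not called. With median centring 5 probes of the list were lower and 3 higher (1.72% and 17.1% of all probes). The 3 higher were probes of Pcolce2 (1.88), Bmp1 (1.58) and Mia3 (1.42). By the ratio of the scanner software 13 were lower and 5 higher (9.44% and 8.78%). The absence of higher probes thus holds for the loess ratio with offset 50.

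Of 10 collagen receptors with 18 probes, 2 probes were lower and none was higher, against 3.83% and 2.26% of all probes. Their median was -0.08. Mrc2, an endocytic receptor that takes up collagen, gave -1.58, -1.52 and -1.86 (mean -1.65 ± 0.18, adjusted p = 8.40e-05) by one probe and -0.25 ± 0.16 by the other. Lair1, an inhibitory receptor of immune cells, gave -0.96, -1.56 and -1.06 by its called probe. That probe was not above the negative controls on any array in EpH4-PR cells, and well above local background on 1 of 3. The other Lair1 probes gave -0.06 ± 0.11 and -0.55 ± 0.13 and were not called. The collagen-binding kinase Ddr1 gave 0.16 ± 0.14 and Ddr2 gave 0.30 ± 0.06. The probes of Itgb1, the integrin chain shared by collagen-binding integrins, gave -0.66 ± 0.09, -0.04 ± 0.06 and 0.16 ± 0.22, and the first turned to 0.51 with median centring. With median centring 2 receptor probes were higher, those of Ddr1 (1.42) and Ddr2 (1.06), against 17.1% of all probes. By the methods' t-test after Benjamini-Hochberg adjustment (3.76% of all probes lower, 2.18% higher) only Mrc2 of the receptors was lower.

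**Figure D4:**
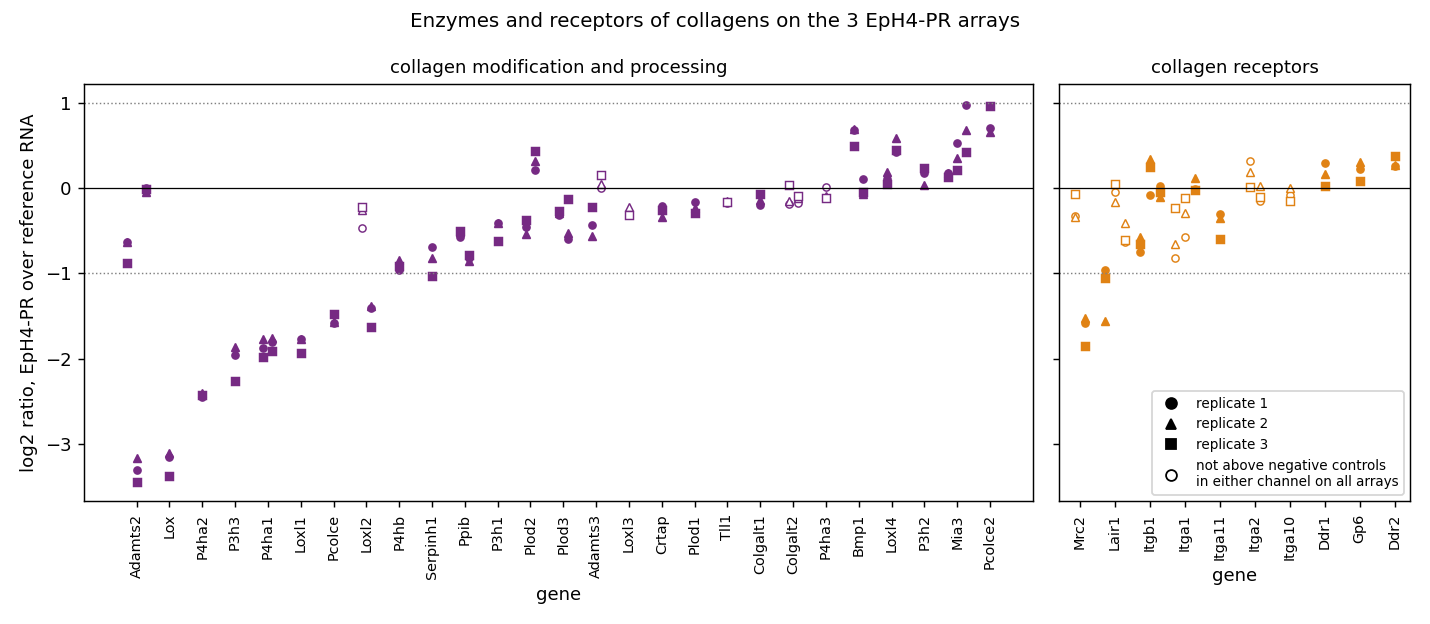
The log2 ratio of the cells over the reference for the probes of 27 collagen modifying and processing genes (left) and 10 collagen receptors (right), ordered by lowest probe, with 1 symbol per array and dotted lines at -1 and 1. Adamts2, Lox and P4ha2 lie lowest, no probe is above the upper limit on average, and most receptors lie near 0.

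Markers of cell types were read beside these values. All 10 epithelial markers were above the negative controls in EpH4-PR cells on all arrays, and 10 of their 12 probes, of 8 genes, were higher than in the reference RNA, with Cdh1 at 4.29 ± 0.10. Krt19 was lower, at -2.62 ± 0.18. Of 9 fibroblast markers with 13 probes, 6 probes were lower and none was higher, among them Vim at -6.51 ± 0.11, the lowest of the array, Dcn at -4.02 ± 0.18 and Pdgfra at -3.34 ± 0.03. In EpH4-PR cells 8 of the 9, all but Fap, still read above the negative controls. Second probes of Vim, Dcn and Pdgfra gave -0.14, -0.19 and -0.09, and none of them read above the negative controls on all 3 arrays in either channel. Twist1, above the negative controls in both channels, gave -0.02, and 0.80 with median centring. S100a4 was lower at -2.76, though its spots read from 11994 to 14674 in EpH4-PR cells. Of 4 endothelial markers with 5 probes none was called and only Kdr was above the negative controls in EpH4-PR cells. Of 3 blood cell markers, 2 had probes, and 3 of their 4 probes were lower. Lower calls were made for 8 of 18 fibrillar collagen probes. Among markers they were made for 6 of 13 fibroblast, 3 of 4 blood, 1 of 12 epithelial and 0 of 5 endothelial probes. Over all probes 3.83% were lower and 2.26% higher, and 11.5% were lower among probes above the negative controls in the reference RNA. The make-up of the reference RNA by cell type was not measured, and the part of that make-up in the collagen ratios cannot be told apart from the level in the cells.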

How the data were processed

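RNA of EpH4-PR cells (Cy5) and a reference RNA (Cy3) was hybridised to 3 two-colour arrays, each on its own slide. The authors deposited the output of Agilent Feature Extraction 8.1.1.1 with unnormalized spot and background intensity, quality flags (other), and a log10 ratio from the software. A further table of the authors' own comparison, with log ratio, ratio, fold change, p-value and both intensities between unnamed groups, was not used. No genome build is given in the sources used here.

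Mean intensity was corrected for the local background with normexp (offset 50) and normalized by loess within each array (limma 3.58.1, R 4.3.3). Control and outlier spots had weight 0 in the loess and were then left out, and spots of a probe were averaged. Over 41174 probes, lmFit and eBayes tested each ratio against 0, and probes past both 0.05 for the Benjamini-Hochberg adjusted p and 1 for the size of the log2 ratio were called. Detection was read against the 95th percentile of negative control spots, since 46.5% to 53.5% of those spots carried the software's flag for well above background in Cy3. The number of arrays limits the precision. On simulated arrays, 96.5% of 200 probes changed by 1.5 log2 units were recovered with 0 false calls. The changed probes were drawn from those bright in the reference RNA, and the simulated bias between dyes was the same at every intensity. These rates therefore do not cover dim collagen probes or a bias that varies with intensity.

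Current symbols came from a RefSeq table of GRCm38.p6, which matched 21445 of 23705 accessions. By accession 2 collagen probes were added, and 3 probes of Cert1, formerly Col4a3bp, which is no collagen chain, were left out. A further 7 probes carrying only older synonyms were left out. Values per array were given for collagen genes called with a signal well above background, the 5 lowest and 5 highest ratios, genes whose probes disagreed, the paired type 4 genes, and the 3 lowest and highest called probes of the processing and receptor lists. The members and lists were chosen with earlier results of these data known. Alternatives covered the background, normalization, spot summary, filters, arrays left out, detection rules, membership, the limit on size, an intensity trend and the methods' t-test. Fold values were computed from the log2 ratios.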

Additional observations from a re-analysis of the deposited data

How the results depend on the processing

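Of the counts recomputed under an alternative, 142 stayed within 1.5 times of the value reported and 20 did not. Without a limit on size, 31 collagen probes were lower and 6 higher, among them 8 lower of the basement membrane and 11 lower and 4 higher of the other collagens, while 24 processing probes were lower and 7 higher and 8 receptor probes were lower and 2 higher. With normexp offset 0, 7 other collagen probes were lower, 2 processing probes higher and 5 receptor probes lower. With the scanner software's ratio these counts were 6, 5 and 5. With median centring 4 collagen probes were higher, 5 processing probes lower and 3 higher, and 2 receptor probes higher. By the methods' t-test after Benjamini-Hochberg adjustment 1 receptor probe was lower. The share of higher among all called probes was 37.1% as reported, 90.9% with median centring, 48.2% with the scanner software's ratio, 44.5% with offset 0 and 51.1% without a limit on size. The cause was not tested.

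With each array left out in turn, 14 to 16 collagen probes were lower and 2 were higher, 8 fibrillar, 3 to 4 basement membrane and 3 to 4 other probes were lower, 2 other probes were higher, 9 processing and 2 receptor probes were lower and 0 of either were higher, and 45 to 46 collagen probes were well above background in EpH4-PR cells (44 on all 3 arrays). The medians moved further when dim probes were left out, to -0.26 (all collagens), -1.42 (fibrillar), -0.67 (basement membrane) and -0.03 (other) without probes dim against local background, and to -0.50, -1.79, -0.76 and 0.04 without those at the negative controls. With probes named by an older synonym 16 collagen probes were lower.

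With median centring 13 collagen, 13 processing and 3 receptor probes changed sign, and 0 of them had been called. Sign changes among the collagens given by value above included those of Col4a6 (0.74), Col18a1 (0.41 and 0.18), Col5a3 (-0.19) and Col4a3 (-0.20) with median centring, of Col6a3 (0.0662 and 0.0783 with offset 0, and -0.289 to 0.133 and -0.0297 to 0.0254 with each array left out) and of Col4a5 (-0.0167 with offset 0, -0.0173 with median spot intensity, -0.000336 with outlier spots kept and -0.0250 to 0.0172 with each array left out). Signal over background limits the 31 dim collagen probes. No paired analysis was possible because there was 1 group of samples.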
